A study of Mus musculus with 14 samples.

Results

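Small leucine-rich proteoglycans are secreted proteins of the connective tissue matrix, built from leucine-rich repeats that often carry sugar chains. The 8 genes described here are Dcn (decorin), Bgn (biglycan), Aspn (asporin), Lum (lumican), Fmod (fibromodulin), Prelp, Ogn (osteoglycin) and Podn (podocan). They were listed by name, with earlier results of these data known. They are 8 of 18193 genes that the array measures with a probe set of 1 gene symbol. Each gene is represented by its brightest probe set, averaged across the 14 arrays, and the other probe sets served as a check.

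Members of this family are known to bind fibrillar collagens and to set the width and spacing of collagen fibrils. Several also hold growth factors of the TGF beta family in the matrix or act on cell surface receptors. In fat tissue such matrix proteins are made largely by fibroblasts and fat cell precursors.

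The samples were 14 RNA preparations of 3T3-L1, a mouse fibroblast line that becomes fat cells under hormone treatment. The groups were cells with a lentivirus against TP53INP2 at day 7 of differentiation (KD TP53INP2, 4 arrays), cells with a scrambled sequence at day 7 (Control, 4 arrays), KD TP53INP2 cells at day 0 (3 arrays) and Control cells at day 0 (3 arrays). All cells had been transduced as precursors, with lentiviruses that encode siRNA sequences, and day 0 cells were confluent and not yet induced. TP53INP2 is a protein known for roles in autophagy and as a coactivator of nuclear receptors. The design asks whether its depletion changes gene expression before and after differentiation. An effect of the knockdown and a lasting difference between the transduced cells cannot be told apart, and the origin of the replicates is not stated.

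Values are log2 expression after RMA, the authors' normalization, and each difference is a log2 fold change from a single limma fit of all genes. A gene was called where its p, adjusted over all 18193 genes by Benjamini-Hochberg, was under 0.05. Trp53inp2 itself was at 33.7% of the Control level in KD TP53INP2 cells at day 7 and at 44.4% at day 0 (adjusted p = 0.000111 and 0.00205). Array medians lay between 5.44 and 5.57. At both days, replicates 1 and 2 of each group lay closer to each other than any other pair of that group. Whether they are repeats of 1 culture is not stated, and they were counted as separate samples. If they are repeats, each day 7 group holds 3 samples and each day 0 group 2, and the p-values are too small. Replicate 3 stood apart at day 7: it was the highest or the lowest array of its group for 8 of 8 members in KD TP53INP2 cells and for 7 of 8 in Control cells. Fat cell markers served as a check of the labelled cell types. Of 10 measured, 8 were called higher at day 7 than at day 0 in cells of either kind. None was called lower, and 2 had values below 0. Over all genes 19% were called higher in KD TP53INP2 cells and 10.1% in Control cells. In these bulk samples, fewer cells of a type and less RNA per cell cannot be told apart.

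The family sits in the mouse genome partly as neighbours, which makes 2 contrasts between nearby genes possible. Ogn lies beside Omd and next but one to Aspn, and Fmod lies beside Prelp, in the RefSeq gene table. Ogn and Fmod had the largest SD over the 14 arrays among the 8 genes, while Aspn and Prelp were not called in any of the 5 comparisons. Their promoters, the 250 bases before the annotated start (RefSeq, build GRCm38.p6, read 5′ to 3′ on the gene's strand), are shown for that reason. Capitals mark matches on either strand to the TATA box TATAAA, the CCAAT box CCAAT and the C/EBP element TTNNGCAA, a motif of factors that drive fat cell formation.
Ogn, chr13:49607765-49608014, plus strand: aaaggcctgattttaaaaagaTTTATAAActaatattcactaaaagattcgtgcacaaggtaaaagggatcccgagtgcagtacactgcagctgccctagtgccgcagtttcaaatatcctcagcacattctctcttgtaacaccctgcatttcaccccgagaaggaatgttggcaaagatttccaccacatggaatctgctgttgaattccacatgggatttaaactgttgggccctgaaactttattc
Aspn, chr13:49544193-49544442, plus strand: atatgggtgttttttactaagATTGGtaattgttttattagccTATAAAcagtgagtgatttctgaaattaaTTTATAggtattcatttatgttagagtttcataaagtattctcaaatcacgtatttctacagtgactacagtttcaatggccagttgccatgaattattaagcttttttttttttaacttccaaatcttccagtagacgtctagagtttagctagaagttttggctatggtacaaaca
Fmod, chr1:134037004-134037253, plus strand: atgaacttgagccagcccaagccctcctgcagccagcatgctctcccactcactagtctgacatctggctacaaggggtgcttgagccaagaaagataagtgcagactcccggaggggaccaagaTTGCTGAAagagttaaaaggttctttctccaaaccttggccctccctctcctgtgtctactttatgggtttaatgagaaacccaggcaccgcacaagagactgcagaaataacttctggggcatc
Prelp, chr1:133921402-133921651, minus strand: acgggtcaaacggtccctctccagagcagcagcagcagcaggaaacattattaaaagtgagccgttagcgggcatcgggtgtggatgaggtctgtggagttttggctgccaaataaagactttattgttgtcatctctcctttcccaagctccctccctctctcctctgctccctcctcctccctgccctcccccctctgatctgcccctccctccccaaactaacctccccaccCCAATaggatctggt

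The Ogn promoter held TATAAA on both strands in overlapping positions, between 229 and 222 bases before the start. The Aspn promoter held a match to TATAAA on each strand and 1 CCAAT match. The Fmod promoter held the C/EBP element 125 to 118 bases before the start, and the Prelp promoter held 1 CCAAT match 15 to 11 bases before it. Of 32851 promoters of the same length, 12.4% held TATAAA, 33.8% CCAAT and 9.56% the C/EBP element. The AP-1 element TGANTCA and the nuclear receptor half-site AGGTCA were also searched, and these 4 windows held neither (6.75% and 14% of all promoters did). A match is a description of letters and not a site of binding.

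Knockdown was first compared with control at day 7, in differentiated cells. Of the 8 genes 3 were lower, Ogn, Dcn and Fmod, 0 were higher and 5 were not called. Over all genes 6.58% were called (3.57% of all genes lower and 3.01% higher). The 8 log2 fold changes had a median of -0.71, beside -0.02 over all genes, and 7 of the 8 were below 0. The 3 calls were all lost when only the 8 day 7 arrays entered the fit (adjusted p = 0.058 to 0.086). For the same doubt replicates 1 and 2 were averaged as 1 sample, and the calls were then lost too (adjusted p = 0.136 to 0.19).

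**Figure D1:**
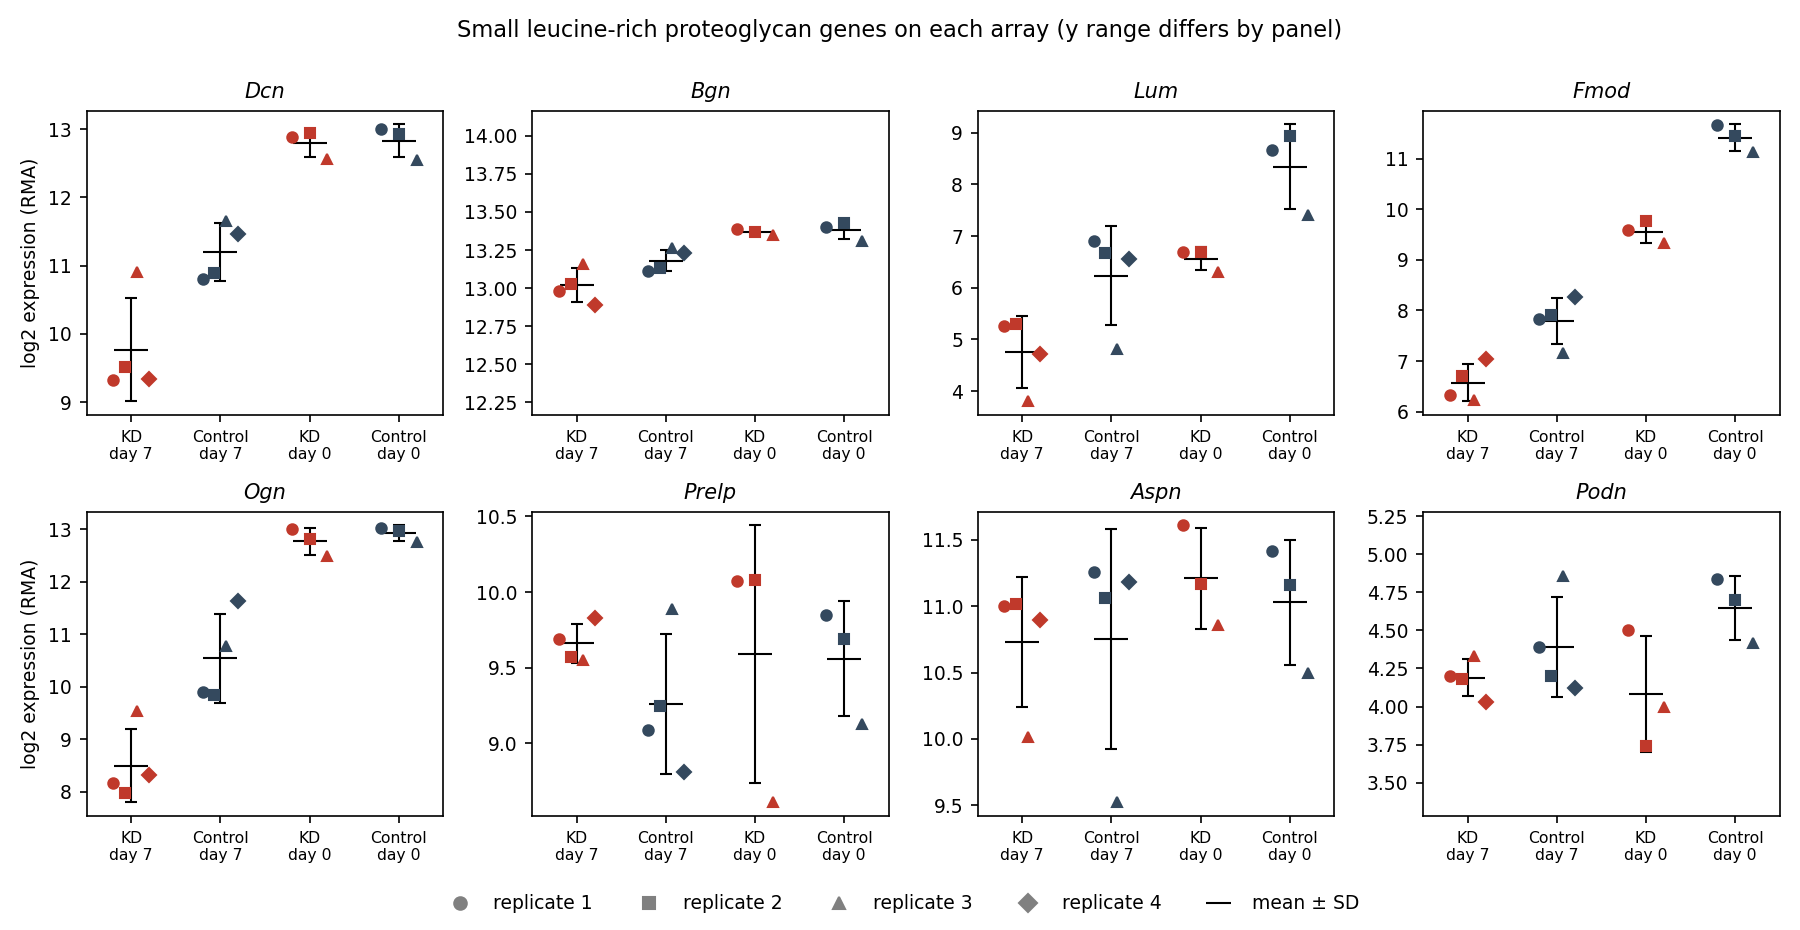
Log2 expression of each of the 8 genes (y axis, RMA) on each of the 14 arrays, with KD TP53INP2 and Control cells at day 7 and day 0 along the x axis; symbols give the replicate number and bars the mean ± SD of a group. Fmod and Ogn of KD TP53INP2 cells lie below all Control arrays at day 7, and Fmod and Lum do so at day 0.

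Ogn encodes osteoglycin, also called mimecan, a small proteoglycan with fewer repeats that takes part in collagen fibril assembly. At day 7 its level was 8.16, 7.97, 9.53 and 8.33 in KD TP53INP2 cells, against 9.90, 9.85, 10.77 and 11.63 in Control cells. All 4 knockdown arrays were below all 4 Control arrays. The difference was -2.04 ± 0.39 (SE; 95% interval -2.89 to -1.19), or 24.4% of the Control level (adjusted p = 0.0124). Only 0.137% of genes had a lower value. Leaving out any single array kept the call (-2.38 to -1.67, adjusted p = 0.00156 to 0.0477). The dimmer Ogn probe set gave -1.50 (adjusted p = 0.13 over all probe sets).

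Dcn encodes decorin, the best known member, which binds collagen fibrils and sequesters TGF beta. Its day 7 level was 9.32, 9.52, 10.91 and 9.34 in KD TP53INP2 cells, against 10.81, 10.89, 11.65 and 11.47 in Control cells. Knockdown replicate 3 overlapped the Control range, and the other 3 arrays lay below it. The difference was -1.43 ± 0.32 (95% interval -2.12 to -0.74), or 37% of the Control level (adjusted p = 0.0233), and the other Dcn probe set gave -1.52 (adjusted p = 0.0235). The call was lost without Control replicate 3 or 4 or without knockdown replicate 1, 2 or 4 (-1.35 to -1.28, adjusted p = 0.0618 to 0.0797). Without knockdown replicate 3 it was -1.81 (adjusted p = 0.00039).

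Fmod encodes fibromodulin, a keratan sulfate proteoglycan of tendon and other collagen-rich tissue that binds type I collagen. Its day 7 level was 6.33, 6.70, 6.22 and 7.04 in KD TP53INP2 cells, against 7.83, 7.91, 7.16 and 8.27 in Control cells. The groups did not overlap. Such a gap was found in 2 of the 8 genes, Ogn and Fmod, both lower, and in 13% of all genes (6.96% lower and 6.02% higher). The difference was -1.22 ± 0.23 (95% interval -1.73 to -0.71), or 42.9% of the Control level (adjusted p = 0.0122). This size was that of the brightest of 6 probe sets: the other 5, all dimmer, gave -0.61 to -0.25 and none was called (adjusted p = 0.241 to 0.605).

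**Figure D2:**
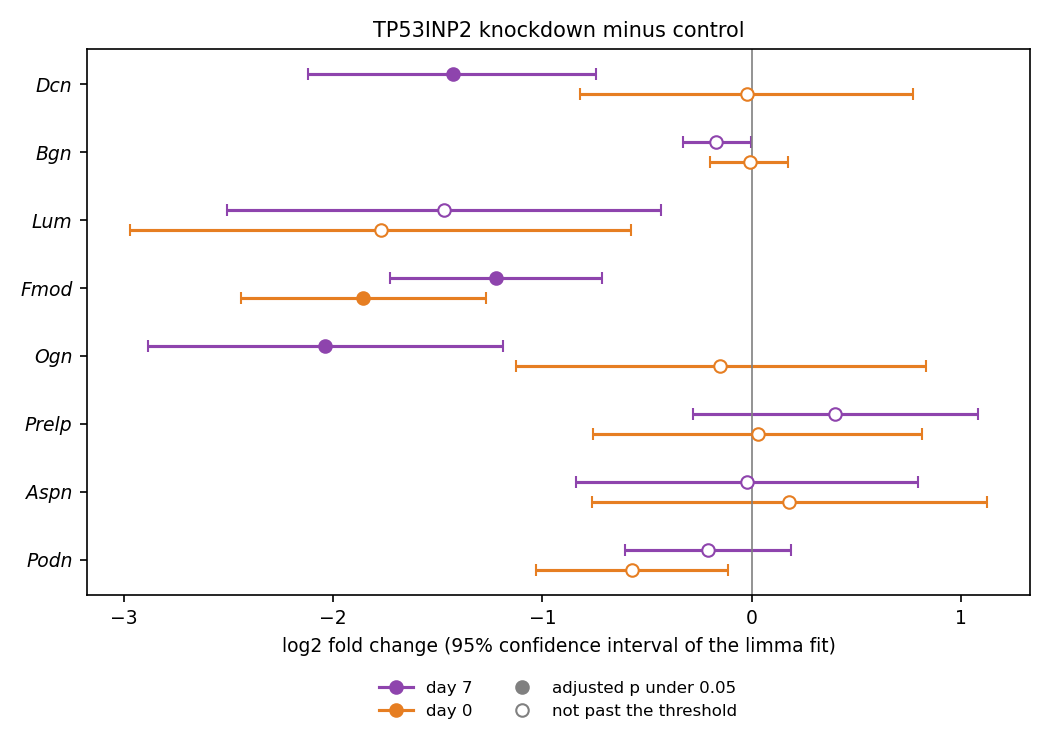
Log2 fold change of KD TP53INP2 over Control (x axis) for each gene (y axis) at day 7 and day 0, with 95% confidence intervals of the limma fit; filled points passed an adjusted p of 0.05. Ogn and Dcn are filled at day 7 and open at day 0, while Fmod is filled at both days.

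Lum encodes lumican, which is close kin to fibromodulin and regulates collagen fibrils in cornea and skin. At day 7 its level was 5.26, 5.29, 3.80 and 4.71 in KD TP53INP2 cells, against 6.91, 6.67, 4.81 and 6.55 in Control cells. Replicate 3 was the lowest array of either group, and Control replicate 3 lay within the knockdown range. The difference was -1.47 ± 0.48 (95% interval -2.51 to -0.43) and was not called (adjusted p = 0.0834). Within pairs of the same replicate number Lum was lower in KD TP53INP2 cells in 4 of 4 pairs, by -1.84 to -1.01. With the replicate number as a block the same difference was called (adjusted p = 0.009), as it was without both replicate 3 arrays (-1.63, adjusted p = 0.0116). Lum has 1 probe set on this array.

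The other 4 genes were not called at day 7. Bgn, whose product biglycan is a collagen-binding relative of decorin and a ligand of Toll-like receptors, ranged from 12.89 to 13.16 in KD TP53INP2 cells and from 13.11 to 13.26 in Control cells. Its difference was -0.17 ± 0.07 (adjusted p = 0.203), lower in 4 of 4 pairs. The Bgn signal was near the top of the array's scale, whose highest value was 14.37. Aspn, whose product asporin carries a stretch of aspartate residues and binds TGF beta and collagen, had -0.02 ± 0.38 (95% interval -0.84 to 0.80; adjusted p = 0.984). Prelp, whose product binds collagen and heparan sulfate at basement membranes, had 0.40 ± 0.31 (95% interval -0.28 to 1.08; adjusted p = 0.498). Podn, encoding the collagen-binding protein podocan, had -0.21 ± 0.18 (95% interval -0.60 to 0.19; adjusted p = 0.551). Podn was the dimmest member, with a mean of 4.32 over the arrays, beside a median of 7.14 over genes.

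Fat cell marker levels were set beside these day 7 differences. The mean of 10 markers was 9.81, 9.73, 8.80 and 9.86 in KD TP53INP2 cells, against 9.23, 9.36, 7.86 and 8.11 in Control cells, higher in knockdown in each pair. None of the 10 was called, and their median difference was 1.04. The mean of 9 fibroblast and precursor markers was 9.94, 10.09, 10.62 and 10.01 in KD TP53INP2 cells, against 10.45, 10.37, 10.70 and 10.59 in Control cells. Of these 9 markers 2 were lower, Fn1 (-0.69) and Pdgfra (-0.49), and 0 were higher. Replicate 3, with the lowest fat cell marker mean of each group, had the highest Dcn, Bgn and Podn of each group and the lowest Lum, Fmod and Aspn of each group. The part of this marker difference in the proteoglycan results was not tested.

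At day 0, before induction, knockdown was compared with control in precursor cells. Of the 8 genes 1 was lower, Fmod, 0 were higher and 7 were not called, beside 1.8% of all genes called (1.34% lower and 0.467% higher). The median of the 8 differences was -0.08, beside -0.05 over all genes. Fmod was 9.59, 9.77 and 9.33 in KD TP53INP2 cells, against 11.66, 11.46 and 11.14 in Control cells. The groups lay well apart, with a difference of -1.86 ± 0.27 (95% interval -2.44 to -1.27), or 27.6% of the Control level (adjusted p = 0.00456). All of the other 5 Fmod probe sets were called as well, at -2.07 to -1.66 (adjusted p = 0.000515 to 0.00699 over all probe sets). Leaving out any single array kept the call (adjusted p = 0.00173 to 0.0289), and averaging replicates 1 and 2 ended it (-1.85, adjusted p = 0.203).

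**Figure D3:**
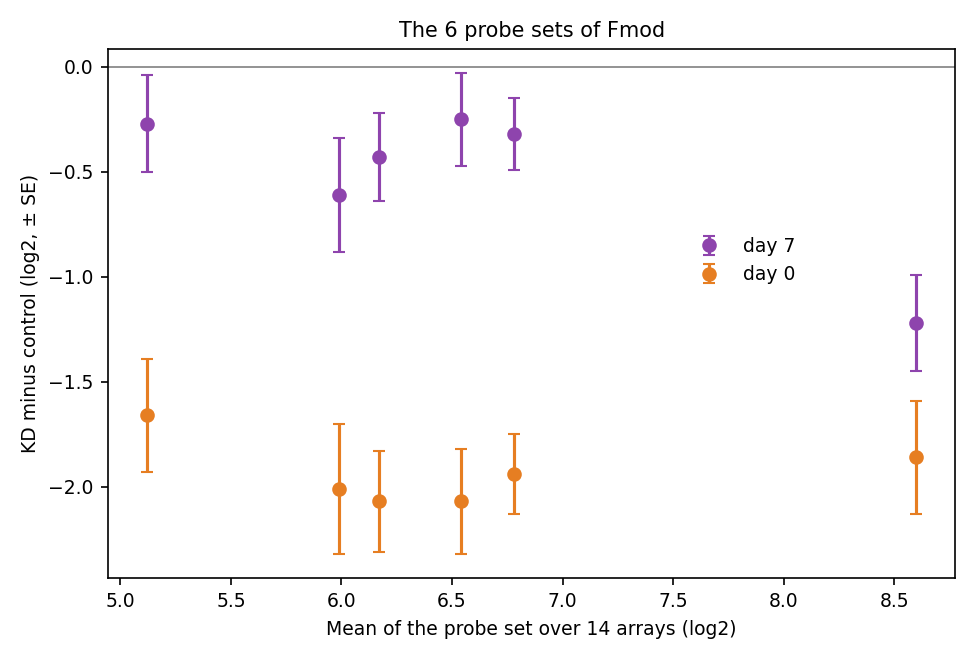
Log2 fold change of KD TP53INP2 over Control (y axis, ± SE) for the 6 probe sets of Fmod against the mean of each over 14 arrays (x axis, log2), at day 7 and day 0. The day 0 values lie together between -2.07 and -1.66, and the day 7 values lie between -0.61 and -0.25 but for the brightest probe set, at -1.22.

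Lum at day 0 was 6.69, 6.69 and 6.30 in KD TP53INP2 cells, against 8.66, 8.93 and 7.41 in Control cells. All knockdown arrays lay below all Control arrays, as in Fmod, so that 2 of the 8 genes had a gap, beside 22.6% of all genes (15.7% lower and 6.89% higher). The difference of -1.77 ± 0.55 was not called (95% interval -2.97 to -0.58; adjusted p = 0.139), while with the replicate block it was called (adjusted p = 0.0131). A measure of RNA integrity differed between these groups: beta-actin signal at the 3' end exceeded that at the 5' end by 2.74 to 3.23 in KD TP53INP2 cells and by 3.32 to 3.76 in Control cells, as log2 differences of control probe sets. With that measure as a covariate the day 0 difference of Fmod was -1.27 (adjusted p = 0.0159) and that of Lum -0.61 (adjusted p = 0.552). These adjusted values rest on an extrapolation, since the day 0 groups did not overlap in the measure. Replicate 3 had both the lowest measure and the lowest Lum of each group at both days. The measure and the replicate 3 arrays therefore cannot be fully told apart. At day 7 the measure overlapped, with 2.70 to 3.37 in KD TP53INP2 cells and 2.82 to 3.48 in Control cells.

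Dcn and Ogn, both lower in KD TP53INP2 cells at day 7, had smaller differences at day 0, with wide intervals. Dcn was 12.89, 12.95 and 12.57 in KD TP53INP2 cells, against 13, 12.93 and 12.55 in Control cells (-0.02 ± 0.37; adjusted p = 0.988). Ogn was 13.01, 12.82 and 12.49 in KD TP53INP2 cells, against 13.03, 12.97 and 12.75 in Control cells (-0.15 ± 0.45; adjusted p = 0.933). In both genes the group ranges overlapped, and the 95% intervals were -0.82 to 0.77 for Dcn and -1.13 to 0.84 for Ogn. With the beta-actin measure as a covariate the day 0 difference was -0.56 for Dcn and -0.65 for Ogn (adjusted p = 0.518 and 0.577). Here too the adjusted values rest on an extrapolation. Bgn (-0.01 ± 0.09), Prelp (0.03 ± 0.36), Aspn (0.18 ± 0.44) and Podn (-0.57 ± 0.21) were not called either (adjusted p = 0.206 to 0.984). Podn was lower in KD TP53INP2 cells in 3 of 3 pairs at day 0, by -0.95 to -0.35. At day 7 it was lower in 4 of 4 pairs, by -0.53 to -0.02.

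**Figure D4:**
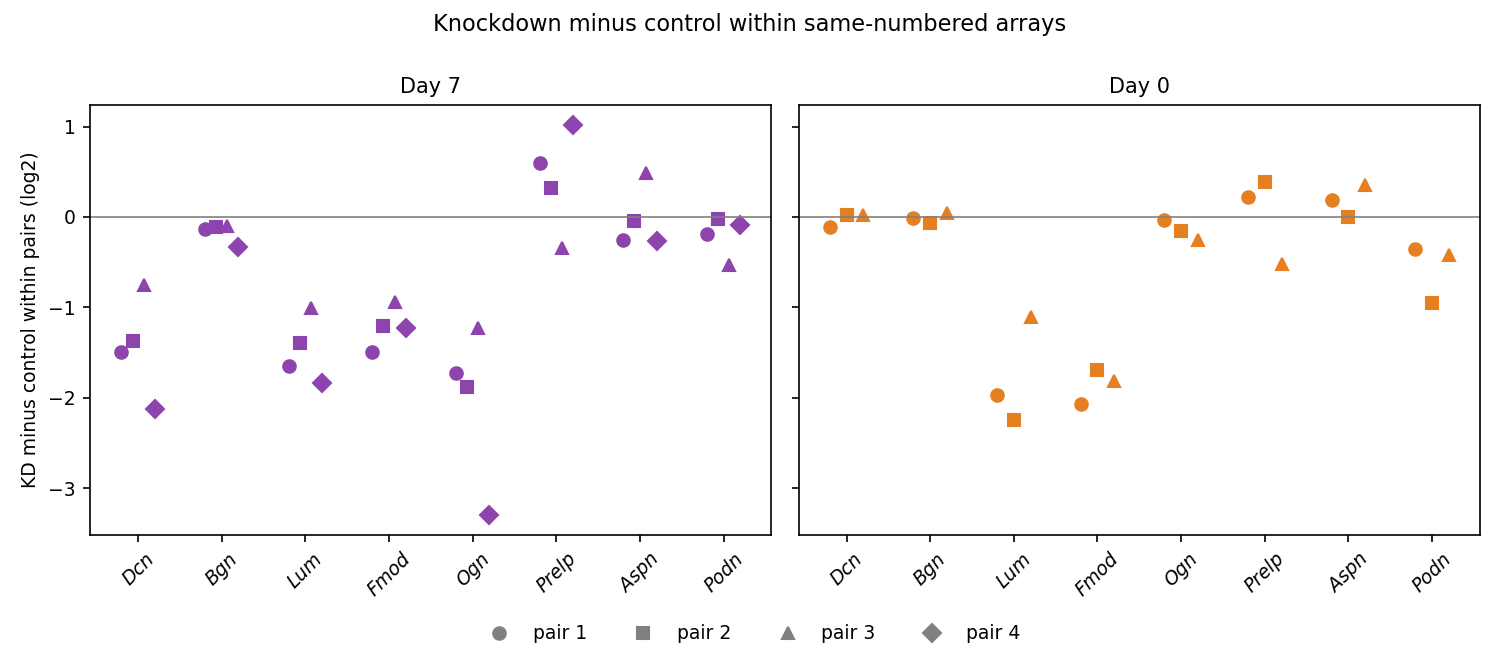
Difference between the KD TP53INP2 and Control arrays of the same replicate number (y axis, log2) for each gene (x axis), at day 7 (left) and day 0 (right); symbols give the pair. Dcn and Ogn lie below 0 in 4 of 4 pairs at day 7 and near 0 at day 0. Lum, Fmod, Ogn and Podn lie below 0 in every pair of both days.

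Whether the knockdown difference itself changed between the days was tested as day 7 minus day 0. Of the 8 genes 0 passed, beside 0.022% of all genes (0.0165% higher and 0.0055% lower), and 2 of the 8 had an unadjusted p under 0.05 by limma, beside 13.2% of all genes. Those were Ogn (-1.89 ± 0.60; adjusted p = 0.221) and Dcn (-1.41 ± 0.49; adjusted p = 0.247). Their 95% intervals were -3.19 to -0.59 and -2.46 to -0.36. For Fmod it was 0.64 ± 0.36 (adjusted p = 0.479) and for Lum 0.30 ± 0.73 (adjusted p = 0.895). Array weights gave a call for Ogn and Dcn (adjusted p = 0.0217 and 0.0159), but 1663 of all genes were then called, against 4 in the main fit. Leaving out knockdown replicate 3 of day 7 gave a call for Dcn (-1.79, adjusted p = 0.0249). Among all alternatives the highest adjusted p by limma was 0.765 for either gene.

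Differentiation itself was followed as day 7 against day 0 in cells of each kind. The day 7 and day 0 arrays here are those of the knockdown comparisons, so the results are not independent of them. In KD TP53INP2 cells 5 of the 8 genes fell, Ogn, Dcn, Fmod, Lum and Bgn, and 0 rose, beside 35.8% of all genes called (16.8% lower and 19% higher). In Control cells 4 fell, Fmod, Ogn, Lum and Dcn, and 0 rose, beside 22.9% of all genes (12.8% lower and 10.1% higher).

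Ogn fell by 4.27 on the log2 scale in KD TP53INP2 cells, to 5.17% of the day 0 level, and fell by 2.38 in Control cells, to 19.2% (adjusted p = 9e-06 and 0.00151). Fmod fell by 2.99 in KD TP53INP2 cells and fell by 3.63 in Control cells (adjusted p = 3.09e-06 and 3.5e-06). The Fmod day 7 mean was 6.57 ± 0.37 in KD TP53INP2 cells and 7.79 ± 0.46 in Control cells (SD, n = 4 each). Dcn fell by 3.03 in KD TP53INP2 cells and fell by 1.62 in Control cells (adjusted p = 2.46e-05 and 0.00456). Lum fell by 1.80 in KD TP53INP2 cells and fell by 2.10 in Control cells (adjusted p = 0.0153 and 0.0106). Bgn fell by 0.35 in KD TP53INP2 cells (adjusted p = 0.004) and had -0.20 in Control cells (adjusted p = 0.099). The Control value was called under 4 alternatives (-0.26 to -0.20, adjusted p = 0.00343 to 0.05), and the KD TP53INP2 call was lost with replicates 1 and 2 averaged (adjusted p = 0.0645). In 5 of the 8 genes every day 7 array lay below every day 0 array in cells of either kind, a gap that 39.3% of all genes had in KD TP53INP2 cells (18% lower and 21.3% higher) and 32.8% in Control cells (18.6% lower and 14.2% higher).

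**Figure D5:**
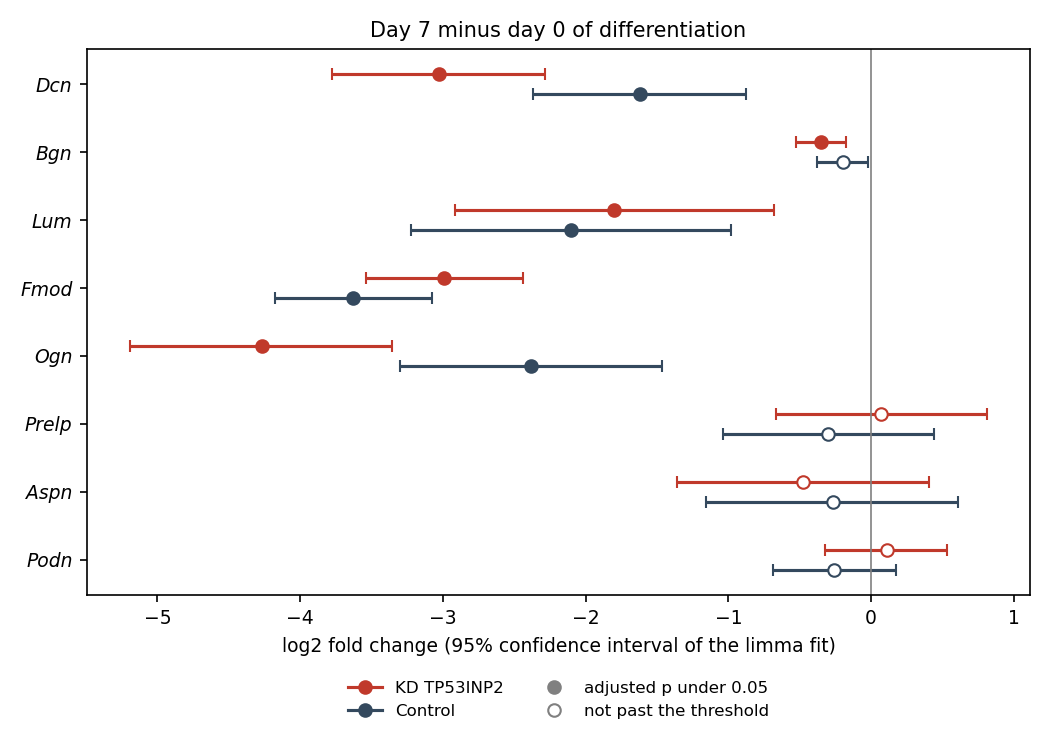
Log2 fold change of day 7 over day 0 (x axis) for each gene (y axis) in KD TP53INP2 and in Control cells, with 95% confidence intervals of the limma fit; filled points passed an adjusted p of 0.05. Dcn, Lum, Fmod and Ogn are filled in cells of either kind, and Prelp, Aspn and Podn in neither.

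Prelp, Aspn and Podn were not called over differentiation. Prelp had 0.07 ± 0.34 in KD TP53INP2 cells and -0.30 ± 0.34 in Control cells. Aspn had -0.48 ± 0.41 in KD TP53INP2 cells and -0.27 ± 0.41 in Control cells, and with the replicate block it was called in KD TP53INP2 cells (-0.57, adjusted p = 0.0454). Podn had 0.11 ± 0.20 in KD TP53INP2 cells and -0.26 ± 0.20 in Control cells.

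Family genes that are neighbours of the members gave the following values. Of the genes beside Ogn and Aspn, Omd (osteomodulin) had 0.45 ± 0.27 at day 7 (adjusted p = 0.357) and Ecm2 had 0.16 ± 0.13 (adjusted p = 0.491). Beside Prelp and Fmod, Optc (opticin) had 0.05 ± 0.16 (adjusted p = 0.9). Next to Lum, Kera (keratocan, a corneal keratan sulfate proteoglycan) had -1.33 ± 0.48 at day 7 (adjusted p = 0.113). Next but one to Lum, Epyc had -1.07 ± 0.50 at day 7 (adjusted p = 0.22) and -1.27 ± 0.58 at day 0 (adjusted p = 0.317). The Epyc signal was low, with a day 7 mean of 4.92 in KD TP53INP2 cells and 5.99 in Control cells. Kera fell over differentiation by 3.02 in KD TP53INP2 cells and fell by 1.88 in Control cells (adjusted p = 0.000513 and 0.0189), with a day 7 mean of 2.56 in KD TP53INP2 cells and 3.89 in Control cells. Of 8 measured family genes outside the 8 described here, 0 were called between knockdown and control at either day.

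The genes whose levels followed the members most closely over the 14 arrays were named by the root mean square difference of centred log2 values. For Dcn the closest was Aebp1, which encodes a collagen-binding matrix protein, at 0.17, beside an SD of 1.39 for Dcn itself. For Ogn it was the lipocalin gene Apod (0.36, SD of Ogn 1.96). These genes were chosen for their likeness over the same arrays, so their own group differences are no separate result. For Lum it was Fap, which encodes a fibroblast surface protease (0.53, SD of Lum 1.46), and for Fmod the semaphorin gene Sema7a (0.56, SD of Fmod 1.90). Next in order came Lancl3 for Dcn (0.25), Fhl2 for Ogn (0.49), Lama2 for Lum (0.61) and Edil3 for Fmod (0.61). Bgn, whose SD was 0.17, lay closest to Ift27 and Sptbn1 (0.05 each). Among the members themselves the closest pair was Bgn and Podn (0.29), both of which varied little. Of the pairs among Dcn, Lum, Fmod and Ogn, Dcn and Ogn lay at 0.62, Lum and Fmod at 0.83, Fmod and Ogn at 0.88, Dcn and Fmod at 0.97, Dcn and Lum at 1.10 and Lum and Ogn at 1.32.

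Enzymes that build the sugar chains of these proteins were mostly not called. Of 22 genes of linker and chondroitin or dermatan sulfate synthesis, 0 were called at either day. Of 12 genes of keratan sulfate synthesis, 1 was higher at day 7, the sulfotransferase gene Chst1 (0.92 ± 0.22, adjusted p = 0.0302), and 1 was lower, the galactosyltransferase gene B4galt1 (-0.60 ± 0.12, adjusted p = 0.0177). At day 0 none of these 12 was called. Of 7 genes that supply the sulfate donor, 0 were called at either day.

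Collagens and the enzymes that process them, the binding partners of this family, included genes called as lower. Of 12 fibrillar and associated collagen genes 2 were lower at day 7, Col11a1 (-2.31 ± 0.29, adjusted p = 0.00109) and Col3a1 (-0.35 ± 0.07, adjusted p = 0.0134), and 0 were higher. At day 0 2 were lower, Col11a1 (-1.67 ± 0.34, adjusted p = 0.0276) and Col5a3 (-1.04 ± 0.22, adjusted p = 0.0334). Of 17 genes of collagen processing and crosslinking 3 were lower at day 7 and 1 was higher. The lysyl hydroxylase gene Plod1 was lower at day 7 (-1.43 ± 0.13, adjusted p = 0.000163) and at day 0 (-1.35 ± 0.15, adjusted p = 0.000885). The other 2 lower ones were the procollagen proteinase enhancer gene Pcolce (-0.53) and the prolyl hydroxylase gene P4ha1 (-0.80). Pcolce2, a relative of Pcolce, was higher (2.22 ± 0.30, adjusted p = 0.00178). The medians of the 2 lists at day 7 were -0.19 and -0.31, beside -0.02 over all genes.

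Of 12 proteases known to cleave proteoglycans or nearby matrix 4 were lower at day 7, and 0 were higher. They were Adamts1 (-0.88 ± 0.13, adjusted p = 0.00322), Adamts15 (-1.30 ± 0.28), Mmp14 (-0.64 ± 0.16) and Mmp2 (-0.34 ± 0.08). The median of these 12 was -0.76, and at day 0 it was -0.10 with 0 called. Among 16 genes of TGF beta signalling, the factor that decorin, biglycan and asporin bind, 2 were lower at day 7 and 0 were higher. These were the signal transducer gene Smad3 (-0.73 ± 0.11, adjusted p = 0.00302) and the receptor gene Tgfbr2 (-0.44 ± 0.08, adjusted p = 0.00849). Of 12 receptors known to bind these proteins, the growth factor receptor gene Met was higher (0.43 ± 0.08, adjusted p = 0.0122) and the endocytic receptor gene Lrp1 lower (-0.52 ± 0.13, adjusted p = 0.035). Of 5 measured genes from a list of BMP factors and Ccn4 (also listed as Wisp1), which held no Wnt ligand, 0 were called at either day.

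Other proteoglycans gave few calls. Of 12 large proteoglycan genes 1 was lower at day 7, Vcan (versican, -0.43 ± 0.10, adjusted p = 0.0248). Of 11 cell surface heparan sulfate proteoglycan genes 2 were lower, Gpc4 (-0.65 ± 0.13, adjusted p = 0.0179) and Sdc2 (-0.64 ± 0.15, adjusted p = 0.0302), and 1 was higher, Gpc2 (1.31 ± 0.33, adjusted p = 0.0348). At day 0 none of either list was called. Among markers of other cell types, the endothelial list had a mean between 2.92 and 3.11 in KD TP53INP2 cells and between 3.02 and 3.31 in Control cells at day 7. For macrophage markers it was 4.60 to 5.46 in KD TP53INP2 cells and 4.87 to 5.41 in Control cells. Of 6 smooth muscle markers 1 was higher at day 7 and 0 at day 0, and of the macrophage, endothelial and cartilage or bone markers none was called at either day.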

How the data were processed

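Amplified RNA of 14 samples was hybridised, 1 array each. The deposited values are log2 expression values; the authors used RMA and the affy package, per the submitters' processing notes, with no version named there. Values of 1.13 to 14.37 were read as base 2. Of 45101 probe sets 64 were controls, 34945 had 1 gene symbol in the platform annotation, 932 had several and 9160 are unnamed here. For each gene the brightest probe set on average was kept. Probe set names ending in _x_at or _s_at, as for Fmod, Aspn and Prelp, mark probes that can match other transcripts.

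One limma 3.58.1 fit in R 4.3.3 (a mean per group, all 14 arrays, 12.6 degrees of freedom after moderation) gave 5 contrasts, with Benjamini-Hochberg adjusted p over 18193 genes; ± beside a log2 fold change is its SE. No filter on low values was used. The script was tested on simulated data. Groups follow the labelled genotype and time. Same-numbered KD TP53INP2 and Control arrays deviated together (correlation of deviations across genes 0.39 to 0.59 in 4 pairs at day 7 and 0.19 to 0.33 in 3 pairs at day 0; other pairs had -0.48 to 0.49 and -0.28 to 0.15, the highest at day 7 between replicates 1 and 2), so the replicate block was run and is given where it changes a call. P-values rest on the spread among these arrays alone, which may be technical, and precision is limited by their number. Alternatives were other probe sets, normalizations, filters, variance models, a covariate and left-out arrays.

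The members, the other lists (196 of 211 genes measured in all) and the tests were chosen with earlier results of these data known. Named genes were the members, Trp53inp2 and those other family genes that lie near a member in the genome. Also named were up to 4 called genes with the lowest adjusted p per list. The 2 closest genes were named for each member called in any contrast. Fn1 and Pdgfra were named after their values were seen. Promoters are from RefSeq, with 6 of the 8 genes matched by symbol.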

Additional observations from a re-analysis of the deposited data

Results flagged for a closer look

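At day 7, replicate 3 lay far from the other arrays of its group in 4 of the 16 sets of 4 values tested. A set is 1 of the 8 genes in KD TP53INP2 or in Control cells. For a single set chance gives about 1 in 20. The 8 genes were measured on the same arrays and are not independent, so the count of 4 cannot be set against that rate. Lum in Control cells passed the cut only narrowly. In KD TP53INP2 cells Dcn was 10.91 on replicate 3 and at most 9.52 on the others, and Aspn was 10.01 on replicate 3 and at least 10.90 on the others. In Control cells Lum was 4.81 on replicate 3 and at least 6.55 on the others, and Aspn was 9.52 and at least 11.06. The knockdown and Control arrays of this number deviated in the same direction for Dcn, Lum and Aspn. Without both replicate 3 arrays, a choice made after seeing the data, 4 of the 8 genes were called at day 7, Dcn, Lum, Fmod and Ogn, beside 12% of all genes (2188).

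The knockdown effect on the second brightest Fmod probe set differed between the days by 1.62 (adjusted p = 0.0483 over all probe sets, limma), being closer to 0 at day 7, where its mean was 5.67 in KD TP53INP2 cells and 6 in Control cells. The other 4 dimmer probe sets had 1.39 to 1.82 (adjusted p = 0.0511 to 0.155), and the brightest had 0.64 (0.472).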

How the results depend on the processing

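Across 1074 values of a member under an alternative, 993 kept their direction and side of the threshold, 27 lost a call, 18 gained one, 36 turned sign where neither value was called, and 0 called values turned sign. Averaging replicates 1 and 2 left 0 of the 8 genes called between knockdown and control at day 7 (against 3), 0 at day 0 (against 1), and 3 and 2 over differentiation in KD TP53INP2 and Control cells (against 5 and 4); fewer samples enter that fit. With only the arrays of the 2 groups compared 0 were called at day 7, beside 333 of all genes (1.83%). At day 0, 2 were called with the replicate block by number or by day and number (Fmod and Lum), with array weights (Fmod and Lum), and with the beta-actin covariate (Fmod, and Aspn higher at 1.24); the cause was not tested. With the replicate block 4 were called at day 7 (Lum added) and the difference between days had 0 called. For that difference array weights gave 2 and leaving out single arrays 0 to 1. Leaving out single arrays gave 2 to 3 called at day 7, 1 at day 0, 4 to 5 over differentiation in KD TP53INP2 cells and 3 to 4 in Control cells. Lum lost its differentiation call without Control day 0 replicate 2 (adjusted p = 0.0543) and without KD TP53INP2 day 0 replicate 1 or 2 (0.0509 and 0.0501).

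Over all genes the count was 1197 at day 7 (64 with replicates 1 and 2 averaged, 1850 with the replicate block by number, 2680 by day and number, 4488 with array weights, 369 to 2885 without single arrays). At day 0 it was 328 (24, 572, 844, 1752, and 101 to 631), for the difference 4 (0, 26, 196, 1663, and 1 to 317). Over differentiation it was 6506 in KD TP53INP2 cells (4098 to 8655) and 4162 in Control cells (1584 to 7110). Low signal limits what can be said of Podn, Kera, Lum in KD TP53INP2 cells at day 7 (mean 4.76) and the dimmer Fmod probe sets at day 7 (means 4.29 to 5.67 in KD TP53INP2 cells and 4.56 to 6 in Control cells), where differences may be understated.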
